A study of Caenorhabditis elegans with 12 samples.

Results

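Yolk genes were followed in whole animals of the nematode Caenorhabditis elegans, as the 9 genes vit-1 to vit-6, rme-2, ceh-60 and unc-62, taken by gene name from a deposited table of 24238 genes. The animals were of strain N2, the wild-type laboratory strain. The tested animals received tetrathiomolybdate (TM), a copper chelator, for 4 days, and the control animals received dimethyl sulfoxide (DMSO), a common solvent. Each treatment had 6 libraries of poly(A) RNA. The labels give the 4 days for TM alone and no duration for DMSO, so equal treatment times cannot be assumed. They also give no stage, age, dose or separate cultures. A p-value thus weighs a difference against the scatter of the sequenced libraries, part of which may be technical.

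Vitellogenins are yolk lipoproteins that the intestine of the adult hermaphrodite makes and secretes into the body cavity. Oocytes take the yolk up through RME-2, a receptor of the low-density lipoprotein receptor family, by clathrin-mediated endocytosis. CEH-60, a homeodomain protein of the PBX family, and UNC-62, its partner of the MEIS family, are known regulators of vitellogenin transcription in the intestine, and UNC-62 also acts in other tissues. The study set TM against DMSO to see what the chelator did to the transcriptome.

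Libraries held 61432401 to 67068328 counts. All 9 genes had a mean of at least 1 FPKM (fragments per kilobase of transcript scaled to library size), as did 11535 genes of the table, and these were tested together. On the first principal component (73.0% of the variance) the groups separated, but DMSO replicate 6 lay between them, and TM replicate 5 and DMSO replicates 2 and 6 stood apart on the second component. Results that turned with those libraries are given with and without them. Values are FPKM, which allow comparison between genes per length, and each log2 change (TM over DMSO, with its SE) comes from edgeR's quasi-likelihood test on the counts, with Benjamini-Hochberg adjustment over all tested genes and a threshold of 0.05.

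Of the 9 genes, 6 fell in TM (vit-2, vit-3, vit-4, vit-5, vit-6 and unc-62), where 16% of all tested genes were called lower. None of the 9 was called higher, at an unadjusted p under 0.05 too, and DESeq2 and limma also called 0 higher, where 23.7% of all tested genes were called higher by edgeR. The other 3, vit-1, rme-2 and ceh-60, did not pass the test. The same 6 genes that fell had all TM values in FPKM below all DMSO values, a pattern that 6.41% of tested genes showed. None had all TM values above all DMSO values, which 16.1% of tested genes showed. The median log2 change was -0.53 over the 6 vitellogenins and -0.43 over the 9 genes, beside -0.0091 over all tested genes and -0.29 over the genes called lower. Without the 3 libraries that stood apart, 6 of the 9 were called lower and 1, ceh-60, higher.

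**Figure D1:**
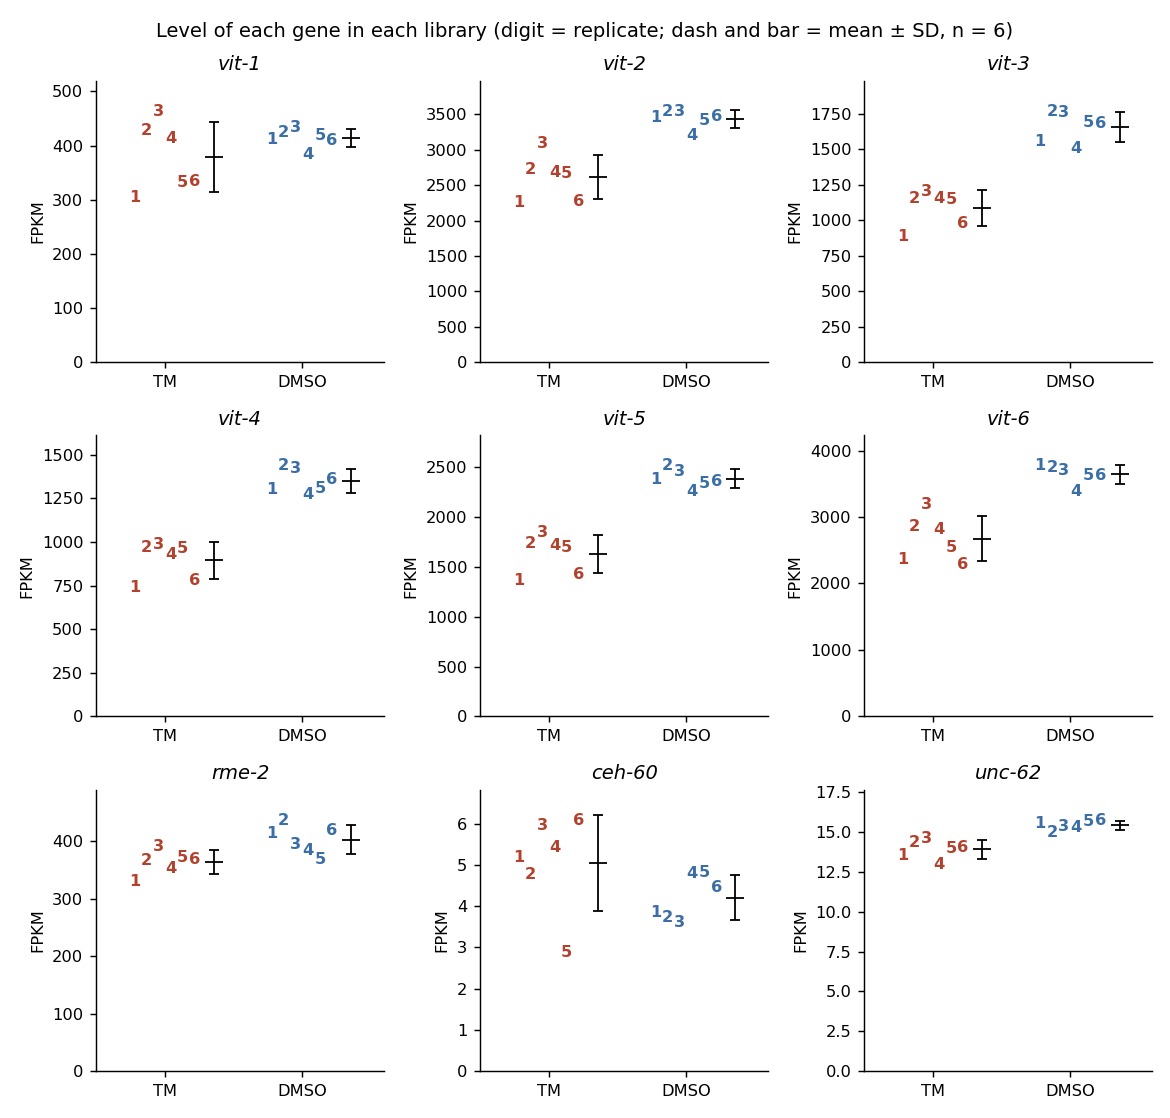
FPKM of each of the 9 genes in each library, TM left of DMSO, with the mean and SD of 6 libraries per group. The groups do not overlap for vit-2 to vit-6 and unc-62, and they overlap for vit-1, rme-2 and ceh-60.

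The gene vit-6 lies apart from the other vitellogenin genes, on chromosome IV at 8261157 to 8266459 (WBcel235, plus strand), and encodes the yolk protein least like the rest. It had 2292 FPKM at the lowest, 2678 at the median and 3188 at the highest in TM libraries, against 3387, 3664 and 3773 in DMSO libraries. The groups did not overlap, and vit-6 had the highest mean FPKM of the 9 genes in both. Its log2 change was -0.48 ± 0.096 (95% interval -0.68 to -0.27, adjusted p = 0.00129), or 28.1% lower in TM.

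The genes vit-1 and vit-2, both on the X chromosome, are close copies of each other, so reads may be split between them, and the authors' treatment of reads that match several genes is not given in the sources used here. vit-2 (X, 5101042 to 5106169, plus strand) had 2262 FPKM at the lowest, 2673 at the median and 3084 at the highest in TM libraries, against 3197, 3465 and 3547 in DMSO libraries. Its groups lay apart, and the log2 change was -0.43 ± 0.095 (95% interval -0.63 to -0.22, adjusted p = 0.00272), or 25.6% lower in TM. vit-1 (X, 7727889 to 7733168, plus strand) had 305, 373 and 464 FPKM at the same points in TM libraries, against 384, 415 and 433 in DMSO libraries. For vit-1 the groups overlapped, since the highest TM library exceeded every DMSO library and others lay below them. The log2 change of vit-1 was -0.16 ± 0.10 (95% interval -0.38 to 0.063, adjusted p = 0.239), an interval that holds both no change and a fall close to that of vit-2.

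The genes vit-3, vit-4 and vit-5 are also close copies and lie within one stretch of the X chromosome. vit-4 (3558769 to 3563965) and vit-3 (3567355 to 3572549) stand side by side on the minus strand, 3389 bases apart with 0 annotated genes between them, and vit-5 (3403471 to 3408603, plus strand) lies 150165 bases from vit-4, with 41 annotated genes between them. These 3 genes had the largest falls of the 9.

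vit-3 had 885 FPKM at the lowest, 1151 at the median and 1204 at the highest in TM libraries, against 1507, 1684 and 1770.0 in DMSO libraries, a change of -0.64 ± 0.098 (95% interval -0.85 to -0.43, adjusted p = 0.000145), or 35.9% lower. vit-4 had 739, 945 and 985 FPKM in TM libraries, against 1269, 1333 and 1437 in DMSO libraries, a change of -0.62 ± 0.096 (95% interval -0.83 to -0.42, adjusted p = 0.000150), or 35.1% lower. For both genes every TM library lay well under every DMSO library. vit-5 had 1367, 1705 and 1847 FPKM in TM libraries, against 2252, 2371 and 2516 in DMSO libraries, a change of -0.58 ± 0.094 (95% interval -0.78 to -0.38, adjusted p = 0.000243), or 33.0% lower. The groups of vit-5 were apart as well.

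For all 6 vitellogenins the coefficient of variation between libraries was larger in TM. The coefficient of variation ran from 11.6% for vit-3 to 16.9% for vit-1 in TM, against 3.73% for vit-2 to 6.47% for vit-3 in DMSO. TM replicate 3 was the highest TM library for all 6 vitellogenins. The lowest TM library was replicate 1 for vit-1 to vit-5 and replicate 6 for vit-6. None of these libraries was among the 3 that stood apart on the principal components.

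By mean FPKM over the whole table, vit-6 ranked 9 in TM and 3 in DMSO, vit-2 ranked 12 in TM and 4 in DMSO, and vit-5 ranked 53 in TM and 7 in DMSO. vit-3 ranked 102 in TM and 30 in DMSO, vit-4 123 in TM and 58 in DMSO, and vit-1 281 in TM and 252 in DMSO. Among the 9 genes the order of mean FPKM was the same in both groups, from vit-6 through vit-2, vit-5, vit-3, vit-4, vit-1, rme-2 and unc-62 to ceh-60. The ranges over libraries of vit-6 and vit-2 overlapped in both groups, as did those of vit-1 and rme-2, while those of vit-3 and vit-4 overlapped in TM alone.

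Vitellogenin transcripts took 4.16% of all counts at the lowest, 4.94% at the median and 5.57% at the highest in TM libraries, against 6.21%, 6.71% and 6.94% in DMSO libraries. The mean share was 4.82% ± 0.563 in TM and 6.69% ± 0.263 in DMSO (SD, n = 6 each), 1.87 percentage points less in TM, and the groups did not overlap. As shares of all counts, vit-1 and vit-2 together took 1.55% ± 0.187 in TM and 1.99% ± 0.0757 in DMSO. The sum of vit-3, vit-4 and vit-5 took 1.85% ± 0.211 in TM and 2.76% ± 0.132 in DMSO. vit-6 took 1.42% ± 0.179 in TM and 1.93% ± 0.0728 in DMSO. Each library's share had a 95% Wilson interval no wider than 0.0127 percentage points, which covers counting error only, so the spread between libraries is far larger than the counting error. In whole-animal RNA, fewer cells that express a gene and less of its RNA per cell cannot be told apart. A share of all counts also depends on how much RNA other tissues give, and their part was not tested.

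**Figure D2:**
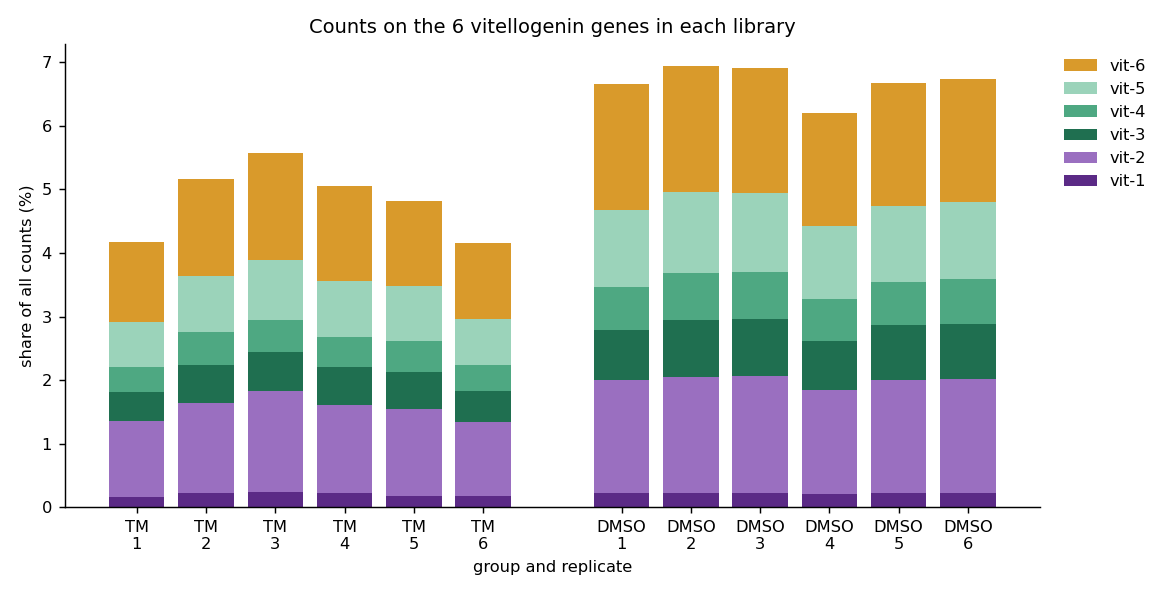
Percent of each library's counts on vit-1 to vit-6, with the TM libraries left of the DMSO libraries. The TM libraries sit between 4.16% and 5.57% in all, below the DMSO libraries at 6.21% to 6.94%.

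Because copies may share reads, sums over copies were compared within each library. The 6 log2 ratios computed were tested by two-sided exact permutation of the group labels with Benjamini-Hochberg adjustment over 6. For ratios that use the sum of all the vitellogenins or a marker list, which were chosen with earlier results known, only the values are given. For the others 0.00216 is the smallest p that 6 libraries against 6 allow. Their genes were also chosen with earlier results known, which limits these p-values. On the log2 scale each of these ratios follows from the rest, so they are not separate results. The ratio of vit-3 + vit-4 + vit-5 to vit-1 + vit-2 was lower in TM by a log2 difference of -0.21 ± 0.027 (exact permutation p = 0.00216, adjusted 0.00325), with no overlap. Relative to vit-1 and vit-2, the vit-3 to vit-5 sum was thus lower in 6 of 6 TM libraries than in any DMSO library. vit-6 over vit-1 + vit-2 differed by -0.082 ± 0.019 (exact permutation p = 0.00216, adjusted 0.00325), again without overlap. vit-6 over vit-3 + vit-4 + vit-5 differed by 0.13 ± 0.042 (exact permutation p = 0.0173, adjusted 0.0173), with overlap of the groups. Within vitellogenin counts, vit-1 + vit-2 made up 32.2% in TM and 29.8% in DMSO, vit-3 + vit-4 + vit-5 made up 38.4% in TM and 41.3% in DMSO, and vit-6 made up 29.4% in TM and 28.8% in DMSO.

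**Figure D3:**
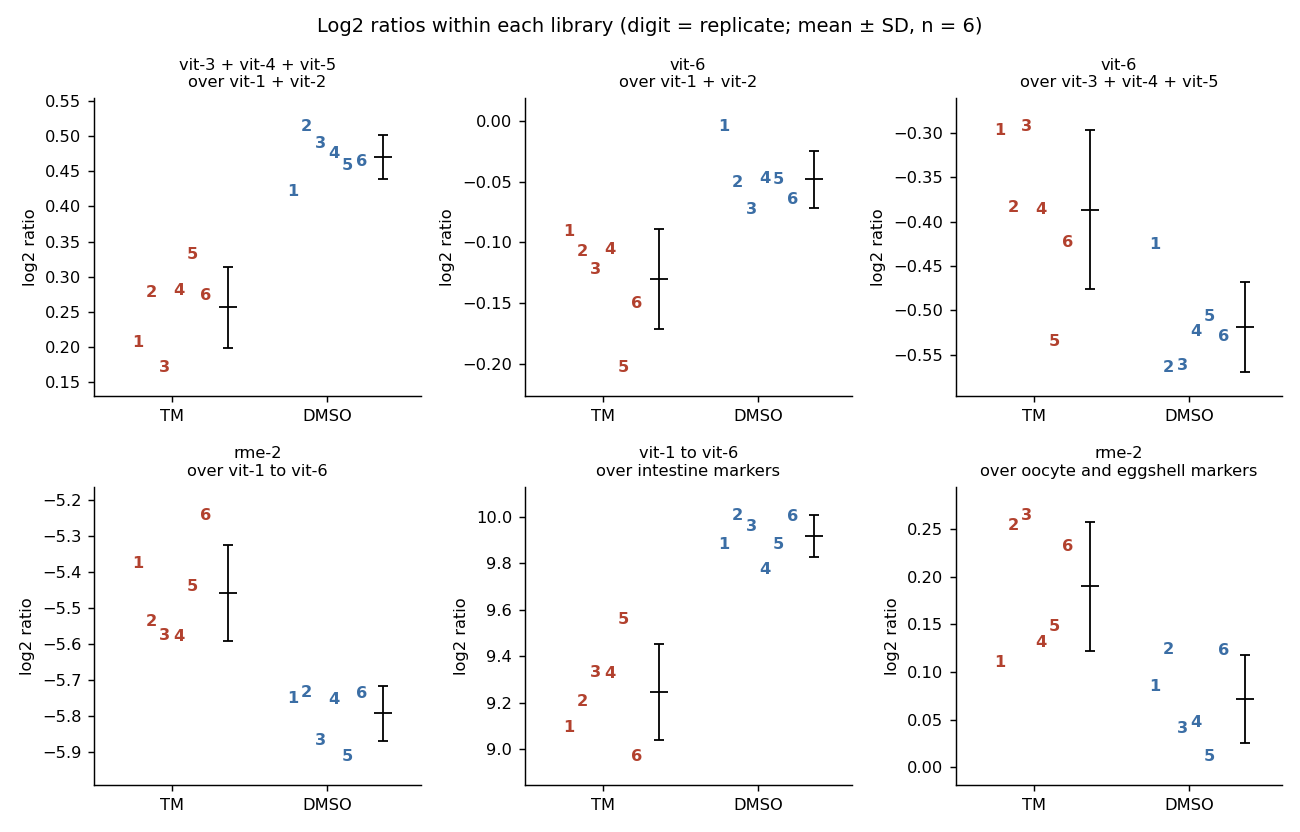
Log2 ratios of counts within each library, TM left of DMSO, with the mean and SD of 6 libraries per group. The ratio of vit-3 + vit-4 + vit-5 to vit-1 + vit-2 lies between 0.17 and 0.33 in TM and between 0.42 and 0.51 in DMSO.

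The receptor gene rme-2 (chromosome IV, 5470026 to 5473174, plus strand) had 330.3 FPKM at the lowest, 368 at the median and 391 at the highest in TM libraries, against 368, 404 and 437 in DMSO libraries. The groups overlapped. The log2 change was -0.18 ± 0.073 (95% interval -0.34 to -0.022), with an adjusted p of 0.0651 that missed the threshold. This call turned with the setting, since the adjusted p ran from 0.00963 to 0.320 over 24 alternatives and passed with median-ratio scaling (0.0301) and with DESeq2 (0.0176). Without TM replicate 5 it was 0.0272, without DMSO replicate 5 it was 0.0295, and without the 3 libraries that stood apart it was 0.142 at a change of -0.11.

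Relative to the ligand genes, rme-2 stood higher in TM. The log2 ratio of rme-2 to the vitellogenin sum was -5.46 ± 0.133 in TM and -5.79 ± 0.0765 in DMSO (SD, n = 6 each). The difference was 0.33 ± 0.063 (SE), and every TM library lay above every DMSO library. Relative to the mean of 13 oocyte and eggshell markers, rme-2 differed by 0.12 ± 0.033 (SE), with overlap of the groups.

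The transcription factor gene ceh-60 (X, 6522596 to 6530146, minus strand) was the lowest of the 9 genes, with 258 to 559 counts in TM libraries and 321 to 446 counts in DMSO libraries. It had 2.89 FPKM at the lowest, 5.30 at the median and 6.09 at the highest in TM libraries, against 3.60, 4.15 and 4.82 in DMSO libraries. The low value belonged to TM replicate 5, and the other 5 TM libraries lay between 4.77 and 6.09 FPKM. The log2 change was 0.23 ± 0.15 (95% interval -0.0997 to 0.56, adjusted p = 0.251). Without TM replicate 5 it was 0.32 with an adjusted p of 0.0290, and after quantile normalization its sign turned to -0.15 with an adjusted p of 0.329.

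The partner gene unc-62 (chromosome V, 4497463 to 4511447, plus strand) had 12.999 FPKM at the lowest, 14.0 at the median and 14.6 at the highest in TM libraries, against 14.9, 15.4 and 15.8 in DMSO libraries. The groups did not overlap although they lay close. The log2 change was -0.18 ± 0.055 (95% interval -0.30 to -0.062, adjusted p = 0.0181), a fall of 11.7%. The call was lost without TM replicate 4 (adjusted p = 0.0523) and with a correction for transcript length (adjusted p = 0.260).

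**Figure D4:**
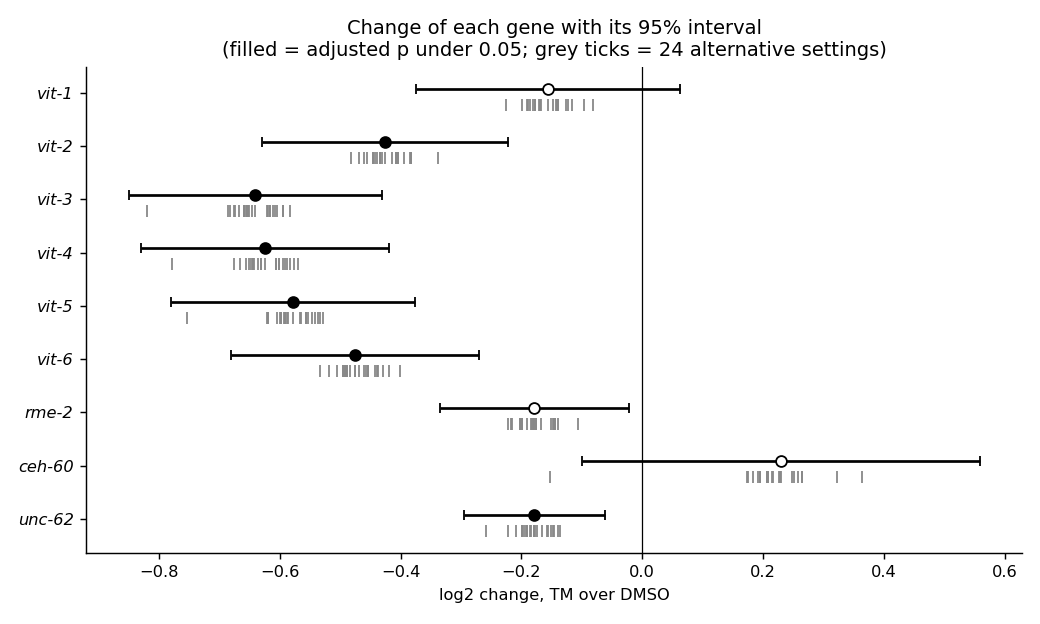
Log2 change, TM over DMSO, of each of the 9 genes with its 95% interval from the count model. The intervals of vit-2 to vit-6 and unc-62 lie wholly below 0, as does that of rme-2, whose adjusted p of 0.0651 missed the threshold, while those of vit-1 and ceh-60 hold 0.

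Over all tested genes, edgeR called 23.7% higher and 16% lower, and the counts of this list and the later ones stand beside these shares. Of 14 other genes known to act on vitellogenin transcription, 13 were tested, 2 rose, 4 fell and 7 did not pass, with a median log2 change of -0.13. Among those that fell were daf-16, the FOXO factor of insulin signalling, at 41.6 ± 1.27 FPKM in TM and 48.5 ± 0.936 in DMSO (-0.25 ± 0.049, adjusted p = 0.00103), and rict-1, the Rictor subunit of TOR complex 2, at 22.7 ± 1.98 FPKM in TM and 27.5 ± 2.01 in DMSO (-0.31 ± 0.063, adjusted p = 0.00142). lin-41, a heterochronic RNA-binding protein gene, fell by 0.18 on the log2 scale (adjusted p = 0.0319), a call lost in 10 of 24 alternatives. lin-29, a zinc finger factor of the larval to adult switch, rose at 2.23 ± 0.203 FPKM in TM and 1.24 ± 0.348 in DMSO (0.81 ± 0.17, adjusted p = 0.00203), a call lost after quantile normalization (0.12, adjusted p = 0.368). The other calls, both named after their values were seen, were sma-3, a SMAD of body-size signalling, higher by 0.43 ± 0.15 (adjusted p = 0.0366), and skn-1, the NRF-like stress factor, which fell by 0.13 (adjusted p = 0.0381). With a correction for transcript length the call of daf-16 was lost (adjusted p = 0.101). The count of falls was 2 in place of 4 without TM replicate 1, 4 or 6 or DMSO replicate 1, 2 or 3. It was also 2 with the length correction and with a replicate block. With DESeq2 or filterByExpr it was 6, and after quantile normalization it was 7. The count of rises was 1 in place of 2 without TM replicate 1, 2 or 3 or DMSO replicate 1 or 5. It was also 1 after quantile normalization, with no filter, with filterByExpr and with a replicate block. Without the 3 libraries that stood apart it was 5. elt-2, the GATA factor of the intestine, had 7.27 FPKM in TM and 8.18 in DMSO (adjusted p = 0.0759).

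Of 16 genes of yolk endocytosis and recycling, 8 fell, 1 rose and 7 did not pass, with a median log2 change of -0.17, and their summed FPKM was 1178 to 1269 in TM libraries and 1289 to 1379 in DMSO libraries. The fall was seen for num-1, the Numb homologue, at 49.7 ± 1.64 FPKM in TM and 59.3 ± 1.73 in DMSO (-0.28 ± 0.047, adjusted p = 0.000299), and for rme-4, which acts with the small GTPase RAB-35 in recycling RME-2 (-0.33 ± 0.065, adjusted p = 0.00115). It was also seen for rme-1, the EH-domain protein of recycling endosomes (-0.25 ± 0.052, adjusted p = 0.00157, and 0.104 with the length correction), and for rab-5, the GTPase of early endosomes (-0.24 ± 0.049, adjusted p = 0.00170). The gene that rose, named after its value was seen, was lrp-1, a megalin-like receptor of the epidermis, at 3.66 ± 0.826 FPKM in TM and 2.29 ± 0.418 in DMSO (0.65 ± 0.15, adjusted p = 0.00310). After quantile normalization 0 genes of this list were called higher.

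Of 8 genes of lipoprotein assembly and export, 7 were tested, 1 rose and 0 fell, with a median of -0.085. At an unadjusted p under 0.05 edgeR gave 1 lower, DESeq2 called 2 lower and limma 0. Without TM replicate 5, without DMSO replicate 5 or without the 3 libraries that stood apart, edgeR called 2 lower. The gene that rose was dsc-4, which encodes the large subunit of microsomal triglyceride transfer protein and loads lipid onto lipoproteins, at 20.02 ± 0.944 FPKM in TM and 16.7 ± 0.921 in DMSO (0.23 ± 0.065, adjusted p = 0.0128). Its call was lost in limma after quantile normalization (0.17, adjusted p = 0.0758). Of 8 genes of yolk breakdown and the lysosome, 0 rose and 0 fell by edgeR, at an unadjusted p under 0.05, by DESeq2 and by limma. Without TM replicate 5 edgeR called 1 lower, without the 3 libraries that stood apart 2 lower and 1 higher, and after quantile normalization limma called 4 lower. Among them cpl-1, a cathepsin L protease that processes yolk, had 1492 FPKM in TM and 1514 in DMSO (adjusted p = 0.603).

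The intestine makes the yolk. Of 14 intestine markers, 6 rose, 1 fell and 7 did not pass, with a median log2 change of 0.16, and all were detected. ifb-2, an intermediate filament gene of the intestinal terminal web, had 74.4 ± 5.20 FPKM in TM and 49.0 ± 2.82 in DMSO (0.57 ± 0.067, adjusted p = 1.71e-05). ifd-2, of the same filament family, had 27.5 ± 6.17 FPKM in TM and 15.4 ± 0.981 in DMSO (0.80 ± 0.12, adjusted p = 0.000150). The gene that fell, named after its value was seen, was the transporter gene pgp-1, with 6.66 ± 1.62 FPKM in TM and 8.20 ± 0.439 in DMSO (-0.33 ± 0.12, adjusted p = 0.0472), a call lost without any 1 of 10 libraries, all but TM replicates 2 and 3. Without the 3 libraries that stood apart, 0 intestine markers fell. The log2 ratio of the vitellogenin sum to the mean of these markers was 9.25 ± 0.206 in TM and 9.92 ± 0.0900 in DMSO (SD, n = 6 each), with no overlap.

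Oocytes take the yolk up. Of 13 oocyte and eggshell markers, 10 fell and 0 rose, with a median log2 change of -0.29, and edgeR at an unadjusted p under 0.05, DESeq2 and limma gave 0 higher as well. oma-2, a zinc finger gene of oocyte maturation, had 484 ± 32.1 FPKM in TM and 638 ± 33.5 in DMSO (-0.43 ± 0.074, adjusted p = 0.000399). egg-1, which encodes an oocyte surface protein for fertilization, changed by -0.38 ± 0.063 (adjusted p = 0.000263). Summed over the list, FPKM was 8538 to 10314 in TM libraries and 10136 to 11358 in DMSO libraries, so the sums overlapped.

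Markers of other tissues were also counted in the same libraries. Of 10 sperm markers 7 were tested and all 7 rose, with a median of 2.87 and summed FPKM of 47.2 to 65.1 in TM libraries, against 5.83 to 17.2 in DMSO libraries. The filter took the mean over all libraries, so spe-11 (0.445 FPKM in DMSO, 5.62 in TM) and ssp-16 (0.762 and 4.09) passed through their TM values. The same holds for bli-1 of the epidermis list (0.494 and 5.50), so these counts of rises partly reflect the filter. Of 8 epidermis markers 6 rose, with a median of 1.15 and sums of 785 to 994 FPKM in TM, against 401 to 536 in DMSO. All 7 body wall muscle markers rose, with a median of 0.78 and sums of 1753 to 2265 FPKM in TM, against 1153 to 1422 in DMSO. Of 9 early embryo markers in the table only pes-10 passed the filter on low values, and it fell by 0.59 (adjusted p = 0.0305). This call was lost without TM replicate 1, 3 or 6 or DMSO replicate 3 or 5. It was also lost in edgeR with total counts only (adjusted p = 0.0523) and with a replicate block (adjusted p = 0.0837). Sums over the early embryo list were 2.94 to 5.60 FPKM in TM and 5.74 to 7.24 in DMSO. The part of these other tissues in the change of the yolk genes was not tested.

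**Figure D5:**
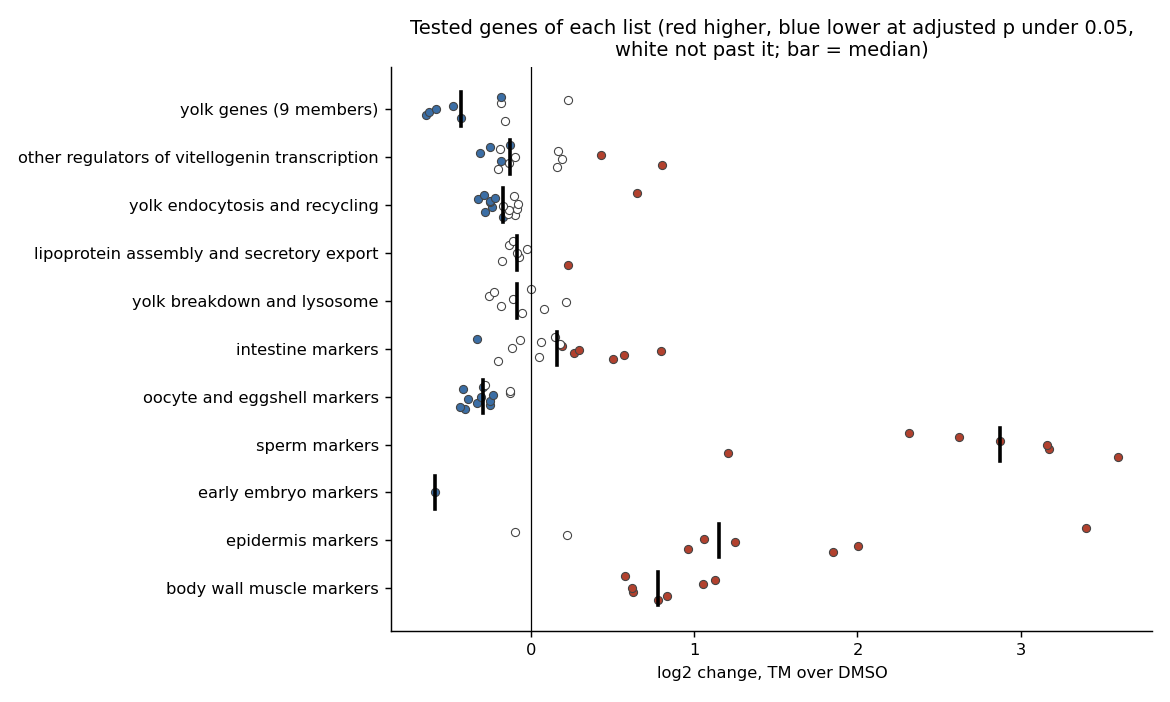
Log2 change, TM over DMSO, of each tested gene of the 9 yolk genes and of the 10 other lists, with the median of each list as a bar. The vitellogenins lie below 0, the intestine markers centre on 0.16, the oocyte and eggshell markers on -0.29 and the sperm markers on 2.87.

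The genes whose levels tracked the vitellogenins most closely within groups were found by the Pearson correlation of log2 CPM with the mean of vit-1 to vit-6, centred on each group's mean, over 12 libraries and 6761 genes of at least 10 FPKM. They were atgl-1 (r = 0.889), an adipose triglyceride lipase gene, ctsa-1.2 (r = 0.881), C18B2.5 (r = 0.869), ctsa-2 (r = 0.859) and gbas-1 (r = 0.853). Without centring, where the difference between groups also counts, the closest were ctsa-1.2, Y53F4B.9, lys-7, a lysozyme gene, cpr-1, a cathepsin B gene, and elo-2, a fatty acid elongase gene. ctsa-1.2, on both lists, had 246 ± 33.0 FPKM in TM and 334 ± 26.2 in DMSO (-0.47, adjusted p = 0.00226). The ranking without centring selects for such a difference, so this p is not a separate result.

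For rme-2 the closest genes within groups were mcm-2 (r = 0.982), a subunit of the replicative helicase, imb-3 (r = 0.974), an importin gene, ddx-17 (r = 0.974), acs-19 (r = 0.972) and tbc-17 (r = 0.969), over the same libraries. Without centring they were mcm-2, hsp-110, ubxn-3, Y111B2A.3 and pgl-1, a P granule gene of the germ line. mcm-2 had 124 ± 6.23 FPKM in TM and 139.9 ± 8.76 in DMSO (-0.21, adjusted p = 0.0281), and the limit given for ctsa-1.2 holds for this p as well. The libraries share depth and preparation across all genes, so these correlations describe the 12 libraries only.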

How the data were processed

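The authors deposited 1 table with a raw read count and an FPKM value per gene and library, per the file headers. The submitters' processing notes name cutadapt 1.9, FastQC, HISAT2 2.2.1 and StringTie. Libraries were poly(A)-selected and marked for strand with dUTP, per the labels' protocols. Not given in the sources used here are the counting tool, its handling of strand and of shared reads, and the genome build. The table's starts were equal to those of the WBcel235 annotation for 96.1% of the 23295 gene names found there, and those of 8 of the 9 genes were equal. Promoter and protein sequences were not used here.

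The filter on low values was a mean FPKM of 1 over the 12 libraries, which 11535 genes passed and 12703 did not. The counts were fitted with edgeR 4.0.16 in R 4.3.3, using TMM scaling, a treatment term alone and robust dispersions, and each gene was tested with the quasi-likelihood F test (two-sided, adjusted after Benjamini-Hochberg), which was also run on simulated data. Contrasts used exact permutation in scipy 1.17.1. Alternatives changed the scaling, the filter, the pseudocount (1 or 0.1), the tool (DESeq2 1.42.0, limma 3.58.1), the length correction, a replicate block and the libraries used. The members and gene lists were chosen with earlier results of these data known. Named genes were the 9 members, up to 4 tested genes per list with the smallest p, and the 5 most like the vitellogenins or rme-2 among genes of at least 10 FPKM. All libraries were counted as separate replicates. Chi-square per degree of freedom within groups was 18.1 at the lowest, which is more scatter than counting error gives. This does not show that the libraries came from separate cultures.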

Additional observations from a re-analysis of the deposited data

Results flagged for a closer look

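Of 38 sets of 6 libraries tested for 1 library far from the others, 4 held one, and chance gives about 1 in 20. DMSO replicate 4 had the lowest vit-2 level of its group at 3197 FPKM, with the other DMSO libraries at 3422 or more. The same library had the lowest share of counts on vit-1 + vit-2, at 1.85%, and on vit-6, at 1.79%. It still lay above every TM library in each of these. DMSO replicate 1 had the highest log2 ratio of vit-6 to vit-1 + vit-2 of its group, at -0.0049.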

How the results depend on the processing

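vit-2, vit-3, vit-4, vit-5 and vit-6 fell under all 24 alternatives (highest adjusted p 0.0338, for vit-2), and vit-1 was called under none (0.0820 to 0.587). rme-2 was called lower with median-ratio scaling (-0.20), total counts (-0.14), no filter (-0.19), edgeR's filterByExpr (-0.22), DESeq2 (-0.20), limma with a pseudocount of 1 (-0.15) or 0.1 (-0.15) and quantile normalization (-0.19), and ran from -0.22 to -0.14 with 1 library left out and to -0.11 without DMSO replicates 2 and 6 and TM replicate 5. ceh-60 turned to -0.15 after quantile normalization, was called higher at 0.36 without those 3, and ran from 0.17 to 0.32 with 1 library left out. unc-62 lost its call with the length correction (-0.14), and ran from -0.21 to -0.16 with 1 library left out. The replicate block also ended its call (-0.18, adjusted p = 0.0559) and moved vit-6 over vit-3 + vit-4 + vit-5 to an adjusted p of 0.0625 at a difference of 0.13. The block left 2328 genes higher and 1305 lower, against 2739 and 1851, and 6 oocyte and eggshell markers lower, against 10. Correlations of same-numbered deviations ran from -0.38 to 0.26, and 1 of 6 TM libraries correlated best with its own number. These values show no pairing by replicate number, but they are too few to exclude one. Members called higher were 1 without those 3 libraries and 0 to 1 with 1 library left out. Genes called lower numbered 2945 after quantile normalization, with 1933 higher, 2832 without the 3 libraries and 1517 to 2608 with 1 library left out. glo-1 turned to -0.17 after quantile normalization. As a share of summed FPKM the vitellogenins took 1.33% in TM and 1.94% in DMSO, a difference of -0.604 percentage points. The base is unlike that of counts: TM over DMSO was 0.689 by summed FPKM and 0.721 by counts. The causes were not tested. ceh-60 had few counts, which limits its precision.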

Other observations

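vit-1 as a percent of vit-2 counts was 12.9% at the lowest, 15.3% at the median and 16.2% at the highest in TM libraries, against 12.2%, 12.3% and 12.6% in DMSO libraries. The groups did not overlap. This ratio was chosen after the values were seen and was not tested. In contrast, vit-4 as a percent of vit-3 FPKM was 82.7% at the median in TM and 81.0% in DMSO, and the groups overlapped.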
